A study of Mus musculus with 6 samples.

Results

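Cxcl1, Cxcl2, Cxcl3, Cxcl5 and Cxcr2 were taken by their symbols from the 31053 genes listed in the files, and all 5 were found. They were followed across cell classes of mouse dorsal skin in 3 groups of 2 single-cell RNA sequencing libraries. All mice were female C57BL/6 animals of 8 to 10 weeks. Sham mice, which the labels call normal, were untreated. IMQ mice had 62.5 mg of cream with 5% imiquimod spread on the shaved back daily for 4 days. IMQ+SHP099 mice had the same cream and were given SHP099, which blocks the phosphatase SHP2 from an allosteric site, by gavage (10 mg/kg daily for 4 days). The labels call the SHP099 days additional, so the order of the treatments is not clear from them. Each library pooled the skin of several mice, so the library was the replicate (n = 2 per group) and single mice cannot be told apart. No group received SHP099 without the cream, and the effect of the cream's vehicle cannot be told apart from that of imiquimod.

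CXC chemokines with an ELR motif, which include the products of Cxcl1, Cxcl2, Cxcl3 and Cxcl5, attract neutrophils by binding the receptor CXCR2. Their transcripts are short-lived and are induced in many cell types by NF-kB, a transcription factor that responds to interleukin 1, tumor necrosis factor and Toll-like receptors, and interleukin 17 prolongs their life. Neutrophils that gather in the epidermis are a hallmark of psoriasis, and imiquimod is an agonist of the receptor TLR7.

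The ligand genes lie close together. On mouse chromosome 5 (GRCm38, GENCODE vM21) the 4 genes span 146579 bases on the plus strand, with Cxcl5 at 90759360 to 90761624, Cxcl3 at 90786103 to 90789600, Cxcl1 at 90891241 to 90893115 and Cxcl2 at 90903871 to 90905938. Cxcr2 lies on chromosome 1 at 74153989 to 74161246, also on the plus strand. All 5 are annotated as protein coding. The 150 bases before the RefSeq start of Cxcl1 (chr5:90891095-90891244), Cxcl2 (chr5:90903749-90903898) and Cxcl3 (chr5:90785951-90786100), GRCm38.p6, plus strand, are shown because these 3 genes share 2 short words, which stand in capitals.
Cxcl1: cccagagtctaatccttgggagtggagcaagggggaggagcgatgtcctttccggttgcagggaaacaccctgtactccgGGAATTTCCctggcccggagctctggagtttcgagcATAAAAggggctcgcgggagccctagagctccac
Cxcl2: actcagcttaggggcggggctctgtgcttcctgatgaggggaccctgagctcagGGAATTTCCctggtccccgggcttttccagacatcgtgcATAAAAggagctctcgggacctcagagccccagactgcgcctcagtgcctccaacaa
Cxcl3: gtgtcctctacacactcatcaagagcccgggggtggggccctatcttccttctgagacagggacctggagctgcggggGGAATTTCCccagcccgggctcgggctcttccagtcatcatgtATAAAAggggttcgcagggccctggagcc
The first word, GGAATTTCC, has the form of an NF-kB site, and the second, ATAAAA, has the form of a TATA box. Both strands were searched, and the words do not overlap. The first word ended 62 bases before the RefSeq start of Cxcl1, 88 before that of Cxcl2 and 64 before that of Cxcl3. The Cxcl2 window runs to 90903898, past the GENCODE start at 90903871, so these distances depend on the annotation used. Of 32851 upstream windows of the same length, 0.189% held GGAATTTCC, 10.1% held ATAAAA and 6 held both, these 3 among them. The window of Cxcr2 held neither word, and the upstream sequence of Cxcl5 was not used here. A match of letters is a description and not a measured binding site.

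Cells were gated one by one into classes by marker genes that did not include the 5 genes. Of 55201 barcodes, 50850 passed the limits on UMIs, genes and mitochondrial content. The gates held 20619 fibroblasts, 16348 keratinocytes, 2792 mural cells (pericytes and vascular smooth muscle), 3493 myeloid cells and 2374 lymphocytes, among other classes, and 5.89% of kept cells had no class. Each of the 4 tested classes held UMIs of all its own markers, which summed to 7932 to 20551 CPM (UMIs for every 1000000 UMIs of the class) in myeloid cells and to at least 31047 in each library of the other 3. The libraries differed in makeup within groups. Keratinocytes made up 73.3% and 64.1% of cells in replicate 1 of Sham and of IMQ+SHP099, and 6.20% to 22.8% in the other 4 libraries. The depth of library totals ran from 53913865 to 188283327 UMIs, with IMQ+SHP099 replicate 2 the lowest and IMQ+SHP099 replicate 1 the highest. The median keratinocyte held 9995 and 15341 UMIs in Sham and 35066 and 31897 in IMQ. Shares of cells with a transcript were therefore compared between groups after each cell was thinned to 2000 UMIs. Unthinned group shares are marked as such. Shares among cells chosen for a transcript they carry were not thinned. In all, 294 barcode sequences were kept in more than 1 library, and no doublet caller was run.

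Levels are given in CPM, the UMIs of a gene for every 1000000 UMIs of the class in that library. Values are given for replicates 1 and 2 in that order. Differences between groups were tested with edgeR's quasi-likelihood test on summed counts with all 6 libraries, and p-values were adjusted over all genes tested. They measure only the spread between pooled libraries.

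Cxcl1, the mouse counterpart of the human GRO chemokines, stood highest in mural cells and then fibroblasts among the 4 tested classes, by the mean of the libraries. Mural cells held 429 and 412 CPM in the Sham libraries, 575 and 548 with IMQ, and 623 and 273 with IMQ+SHP099. Fibroblasts held 191 and 64.5 in the Sham libraries, 291 and 465 with IMQ, and 360 and 405 with IMQ+SHP099. In both classes the IMQ libraries lay above the Sham libraries, and the effect was not shown to differ between the classes (difference 1.22 ± 0.56 on the log2 scale, edgeR adjusted p = 0.398). Fibroblast markers summed to 1721 to 4928 CPM in the mural gate, and their part in its Cxcl1 was not tested.

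Keratinocytes had little Cxcl1 in untreated skin. Their level was 9.65 and 6.66 CPM in the Sham libraries, 110 and 61.6 with IMQ, and 117 and 150 with IMQ+SHP099. Myeloid cells held 3.61 and 35.3 in the Sham libraries, 133 and 75.2 with IMQ, and 148 and 72.1 with IMQ+SHP099. By their mean, the tested classes stood in the order mural cells, fibroblasts, myeloid cells and keratinocytes in Sham and again in IMQ, and in both groups the libraries of the last 2 overlapped. Lymphocytes, the class read as background for this gene, held 0.651 to 77.2 CPM over the 6 libraries.

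Cxcl2, which encodes the chemokine also known as MIP-2, was highest in myeloid cells in every library. Their level was 1533 and 1097 CPM in the Sham libraries, 7509 and 5480 with IMQ, and 12285 and 7552 with IMQ+SHP099. Within the myeloid gate, cells with neutrophil markers held the most, at 19447 and 12608 CPM with IMQ, 27962 in replicate 2 of IMQ+SHP099, and between 12328 and 110013 where only 3 to 9 such cells were found (the remaining 3 libraries). Macrophage or monocyte-gated cells held 565 and 2133 in the Sham libraries, 6207 and 4055 with IMQ, and 4085 and 4806 with IMQ+SHP099. Langerhans-gated cells held 1559 and 3192 in the Sham libraries, 4747 and 1617 with IMQ, and 14022.5 and 4855 with IMQ+SHP099. Thus Cxcl2 was present in each of these myeloid subsets, with Sham and IMQ libraries apart in the macrophage or monocyte gate and overlapping in the Langerhans gate.

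Keratinocytes held 31.3 and 26.9 Cxcl2 CPM in the Sham libraries, 260 and 131 with IMQ, and 298 and 348 with IMQ+SHP099. Fibroblasts held 93.0 and 21.8 in the Sham libraries, 129 and 126 with IMQ, and 281 and 99.0 with IMQ+SHP099. In mural cells the values were 46.0 and 19.2, 82.7 and 64.1, and 55.8 and 28.9. All 3 of these classes had both IMQ libraries above both Sham libraries. Schwann cells, which were chosen as a low reference after the values were seen, held 0 to 23.5 CPM.

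Cxcl3, a close relative of Cxcl1 and Cxcl2, was scarce in untreated skin, with 114 and 11 UMIs over all cells of the Sham libraries. Keratinocytes held 34 and 0 UMIs in the Sham libraries (0.396 and 0 CPM), against 31.3 and 6.57 CPM in IMQ and 56.9 and 57.3 in IMQ+SHP099. Myeloid cells held 3.61 and 1.17 CPM in the Sham libraries, 78.4 and 50.8 with IMQ, and 31.5 and 82.5 with IMQ+SHP099. In both classes every treated library lay above both Sham libraries. Within the myeloid gate in IMQ, neutrophil-gated cells carried 293 of the 494 and 288 of the 323 Cxcl3 UMIs, at 335 and 184 CPM. Macrophage or monocyte-gated cells of the same libraries held 51.5 and 9.88 CPM. Lymphocytes held 8.68 and 0.651 CPM in the Sham libraries, 193 and 3.67 with IMQ, and 47.1 and 43.7 with IMQ+SHP099, so IMQ replicate 1 stood above keratinocytes and myeloid cells of the same library. Fibroblasts did not exceed 3.73 CPM in any library, and mural cells did not exceed 2.53.

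Cxcl5, which encodes the chemokine LIX, was found mainly in fibroblasts. Fibroblasts held 1 and 3 UMIs in the Sham libraries. In IMQ they held 2188 and 3996 UMIs, or 64.4 and 63.1 CPM, and in IMQ+SHP099 92.7 and 53.0 CPM. Fibroblasts carried 96.9% and 99.1% of all Cxcl5 UMIs in the IMQ libraries, and 79.9% and 97.2% with IMQ+SHP099, where keratinocytes carried 15.3% and 2.84%. Keratinocytes held 1 UMI over both Sham libraries, 1.38 and 0.461 CPM in IMQ, and 1.63 and 4.23 in IMQ+SHP099. Beside these keratinocyte values, the summed fibroblast markers in the keratinocyte gate ran from 318 to 612 CPM over the 6 libraries, against 31047 to 59860 in the fibroblast gate, and their part in the keratinocyte Cxcl5 was not tested. Endothelial and Schwann cells held no Cxcl5 UMI in any library, where 3 UMIs would be 0.896 to 8.31 CPM in endothelial cells and 2.12 to 100.4 CPM in Schwann cells.

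Cxcr2, the receptor, was highest in the myeloid gate among the 4 tested classes. Its level there was 1.44 and 1.75 CPM in the Sham libraries, 37.3 and 99.0 with IMQ, and 6.03 and 40.1 with IMQ+SHP099. The myeloid value rested on 2 and 12 UMIs in Sham and on 9 in IMQ+SHP099 replicate 1. In each of these libraries its 95% counting interval took in the keratinocyte level, so the order is not settled there. The neutrophil-gated cells numbered 3 and 7 in the Sham libraries, 160 and 313 with IMQ, and 9 and 88 with IMQ+SHP099. Their number and the myeloid level of Cxcr2 were both higher in IMQ than in Sham, and how number and level were related was not tested. Within the neutrophil-gated cells Cxcr2 stood at 258 and 384 CPM in IMQ and 519 and 329 in IMQ+SHP099. In IMQ they carried 226 of the 235 and 599 of the 629 Cxcr2 UMIs of the myeloid gate. Macrophage or monocyte-gated cells did not exceed 5.32 CPM in any library. Fewer cells and less RNA per cell cannot be told apart in the sums over the myeloid gate.

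**Figure D1:**
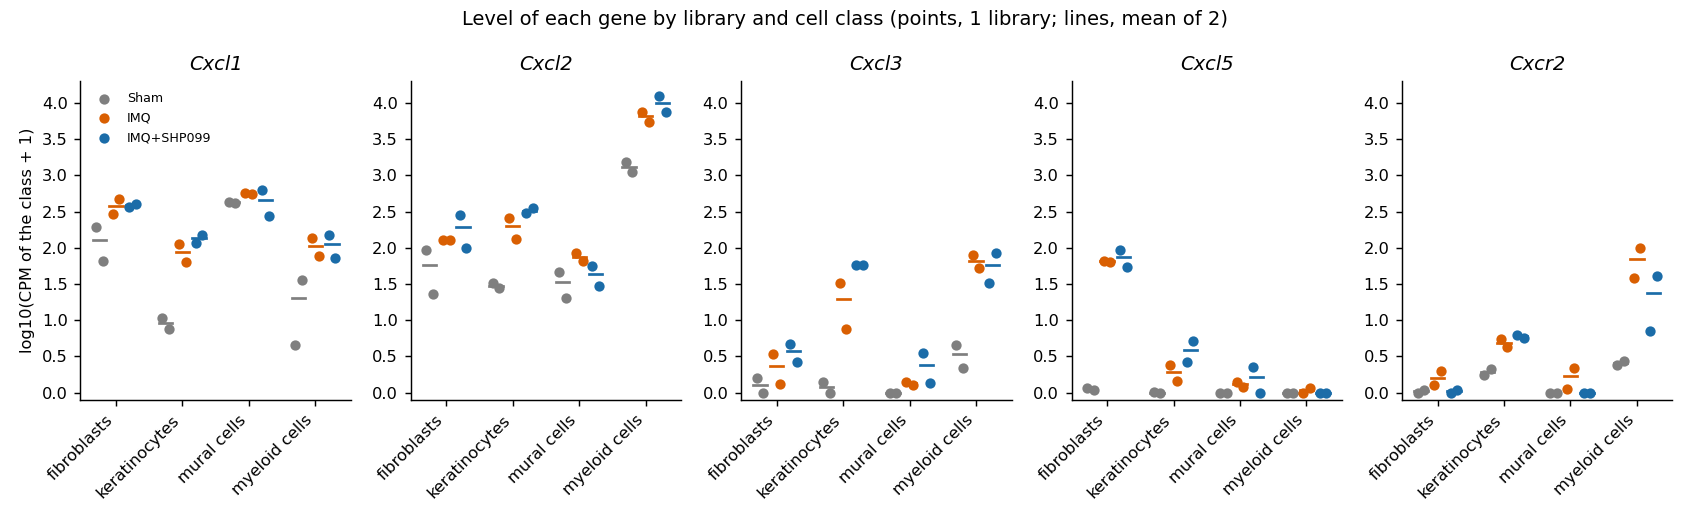
Level of each gene in the 4 tested cell classes, as log10 of its CPM in the class plus 1. Each point is a library, lines are means of 2 libraries, and colors mark Sham, IMQ and IMQ+SHP099. Cxcl2 is highest in myeloid cells in all 6 libraries, Cxcl5 stands near 0 in Sham fibroblasts and at 64.4 and 63.1 CPM in those of IMQ, and keratinocytes hold more of Cxcl1, Cxcl2 and Cxcl3 in every treated library than in either Sham library.

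Where the transcripts of a gene came from depended on the makeup of the library. Fibroblasts carried 46.7% and 75.5% of the Cxcl1 UMIs in IMQ, while keratinocytes carried 23.7% and 4.11%. In IMQ+SHP099 replicate 1, which was rich in keratinocytes, they carried 74.0% of the Cxcl1 UMIs, 65.5% of those of Cxcl2 and 97.9% of those of Cxcl3. In IMQ+SHP099 replicate 2 the same shares were 10.3%, 12.5% and 61.6%. These shares follow the number of cells of each class that were captured and are not levels per cell.

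**Figure D2:**
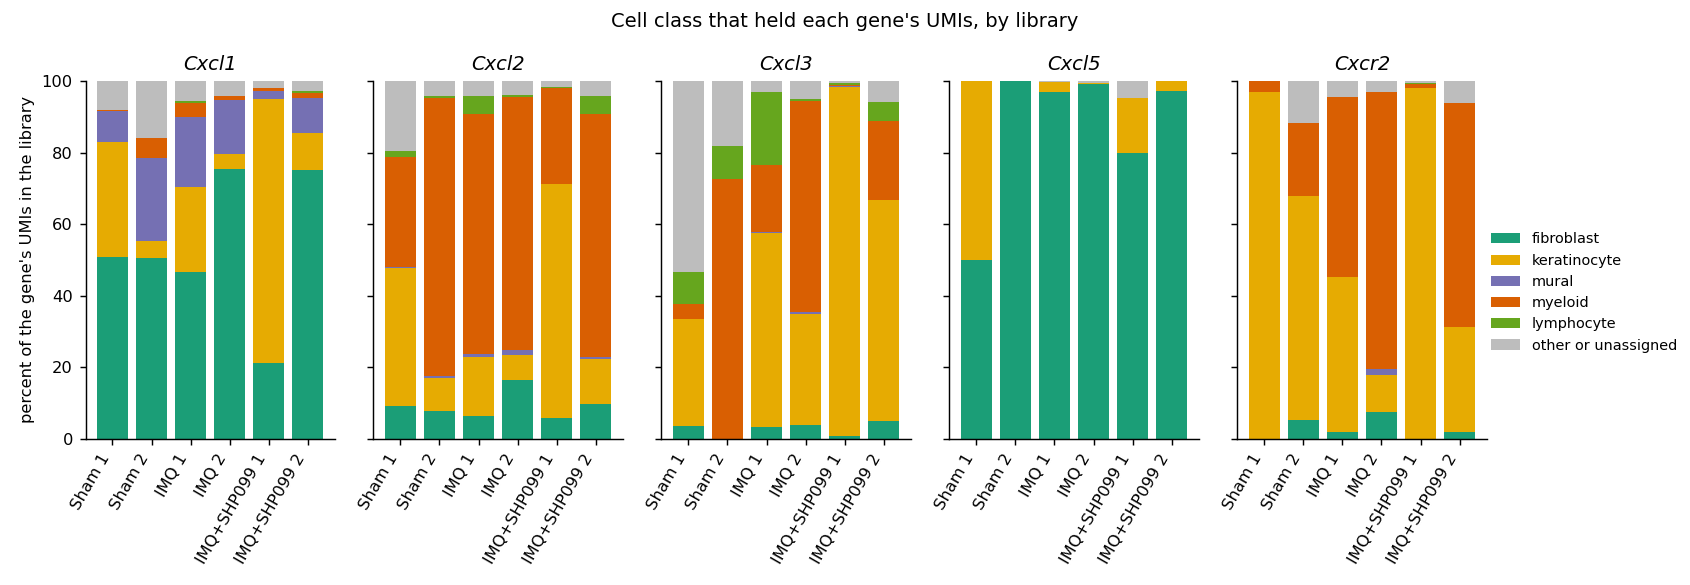
Percent of each gene's UMIs that lay in each cell class, 1 bar a library. Bars of replicates 1 and 2 of a group differ widely for Cxcl1, Cxcl2, Cxcl3 and Cxcr2, as in IMQ+SHP099, where keratinocytes hold 74.0% and 10.3% of the Cxcl1 UMIs, while fibroblasts hold 96.9% and 99.1% of the Cxcl5 UMIs with IMQ, and 79.9% and 97.2% once SHP099 was added. The bars of Cxcl3 and Cxcl5 in Sham rest on few UMIs.

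IMQ was first set against Sham, to ask how the cream moved the 5 genes. In keratinocytes all 5 genes were higher in IMQ, where 5.19% of the 14483 genes tested were called higher. Cxcl1 rose by 3.63 ± 0.45 on the log2 scale (SE, adjusted p = 0.00257) and Cxcl2 by 3.02 ± 0.45 (adjusted p = 0.00525). Cxcl3 was called with an adjusted p of 0.00849 on 1595 UMIs in IMQ against 34 in Sham, a ratio of summed levels of 77.6 with a 95% counting interval of 55.3 to 112. Its fitted log2 fold change of 6.43 ± 1.08 ran from 4.85 (without IMQ replicate 1) to 12.98 (without Sham replicate 1, which left Sham with 0 UMIs), and the size of the change is not settled. Cxcl5 was called with an adjusted p of 0.00718 on 75 UMIs in IMQ against 1 in Sham, a ratio of summed levels of 124 with a 95% counting interval of 21.6 to 4965. Cxcr2 rose by 2.33 ± 0.40 (adjusted p = 0.00864), and this call was lost without IMQ replicate 1 (adjusted p = 0.0896). The other 4 calls held without any single library of the 2 groups.

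In fibroblasts 1 of the 4 genes tested was called higher, Cxcl5, against 0.269% of all genes tested. It rose from 4 to 6184 UMIs over both libraries, a ratio of summed levels of 660 with a counting interval of 258 to 2423 (edgeR adjusted p = 0.00545). The call was lost without Sham replicate 2, which left 1 Sham library (adjusted p = 0.0877). Cxcl1 in fibroblasts had a log2 fold change of 1.53 ± 0.59 (adjusted p = 0.357), and without Sham replicate 1 it reached 2.85 (adjusted p = 0.038). Cxcl2 stood at 1.11 ± 0.80 (adjusted p = 0.722) and Cxcl3 at 3.26 ± 1.81 (adjusted p = 0.583). With 1 library left out, Cxcl2 ran from 0.33 (without Sham replicate 2) to 2.86 (without Sham replicate 1), and Cxcl3 from 0.94 (without IMQ replicate 1) to 8.61 (without Sham replicate 1, which left Sham with 0 UMIs). Cxcr2 was too low in fibroblasts to be tested.

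In mural cells Cxcl1 and Cxcl2 were tested and neither was called, where 0.192% of genes were called higher. Cxcl1 stood at 0.58 ± 0.36 (adjusted p = 0.441) and Cxcl2 at 1.58 ± 0.47 (adjusted p = 0.162). Without Sham replicate 1, the library with the fewest mural cells (95), Cxcl2 was called at 2.30 (adjusted p = 0.0407). The other 3 genes were too low to be tested.

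In myeloid cells none of the 4 genes tested was called by edgeR, where 0.00902% of genes were called higher. Their fold changes stood at 2.55 ± 0.83 for Cxcl1, 2.43 ± 0.44 for Cxcl2, 5.30 ± 0.82 for Cxcl3 and 5.55 ± 1.09 for Cxcr2, with adjusted p-values of 0.383, 0.208, 0.183 and 0.208. All 4 had an unadjusted p under 0.05, as did 1145 genes in all, and DESeq2 called 3 of the 4, Cxcl2, Cxcl3 and Cxcr2. With only the IMQ and Sham libraries in the fit, the same 3 genes were called by edgeR. Both alternatives also called far more genes in all than the main fit did, and the counts stand in the closing section on processing. Without the neutrophil-gated cells the fold changes were 2.34 for Cxcl1, 1.91 for Cxcl2 and 3.85 for Cxcl3, and none was called. Of 100 changes of 4-fold simulated for IMQ against Sham in the myeloid sum (11001 genes), 0% were recovered. In the sum of all cells none of the 5 genes was called, where 0.0% of genes were called higher. There 1266 genes had an unadjusted p under 0.05, all 5 members among them, and DESeq2 called 574 genes and all 5 members.

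The effects were then compared between classes, which is a test of the difference itself. Among 28 such tests over the 6 pairs of classes, 1 passed. The IMQ effect on Cxcl1 was larger in keratinocytes than in mural cells by 3.05 ± 0.43 on the log2 scale (adjusted p = 0.00173), where 4.36% of genes differed between these classes. Between fibroblasts and keratinocytes, where 8.91% of genes differed, Cxcl3 came closest at a difference of -4.68 ± 1.10 (adjusted p = 0.0503), and Cxcl1 stood at -1.85 ± 0.53 (adjusted p = 0.0722). Cxcl2 in keratinocytes against mural cells stood at 1.42 ± 0.40 (edgeR adjusted p = 0.0654). No member passed between fibroblasts and mural cells (0.653% of genes), fibroblasts and myeloid cells (0.0724%), keratinocytes and myeloid cells (1.18%), or mural and myeloid cells (0.0%). That does not show the effects to be alike. The fold change of Cxcl5 in fibroblasts was thus not shown to differ from that in keratinocytes (difference 2.30 ± 4.40, adjusted p = 0.779), although its level was far higher in fibroblasts.

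IMQ+SHP099 was then set against IMQ, to ask how the inhibitor moved them. No member was called in any sum. Neither was any other gene, so the share called in either direction was 0.0% of all genes in all cells, fibroblasts, keratinocytes, mural cells and myeloid cells alike. Genes with an unadjusted p under 0.05 numbered 52, 133, 353, 342 and 121 in these sums, and DESeq2 called 3, 5, 8, 3 and 3. In keratinocytes the log2 fold changes were 0.73 ± 0.41 for Cxcl1, 0.82 ± 0.42 for Cxcl2, 1.68 ± 0.83 for Cxcl3, 1.63 ± 0.69 for Cxcl5 and 0.51 ± 0.37 for Cxcr2. For Cxcl1, Cxcl2, Cxcl3, Cxcl5 and Cxcr2 alike, both IMQ+SHP099 keratinocyte libraries lay above both IMQ libraries in CPM. Every adjusted p was 1. The members share these libraries, and how many of all genes had this order was not counted, so no rise with SHP099 was read from it. By the share of keratinocytes with a transcript at equal depth, these groups overlapped for Cxcl2 and Cxcr2. Cxcl2 was found in 17.0% and 21.8% with IMQ+SHP099 against 18.1% and 10.8% with IMQ. For Cxcr2 the shares were 1.08% and 0.468% against 0.626% and 0.369%. The groups did not overlap for Cxcl1 and Cxcl3. For Cxcl5, 9 and 1 thinned keratinocytes had a UMI with IMQ+SHP099, against 1 and 0 with IMQ. At a depth of 1000 UMIs the Cxcl5 shares were 0.108% and 0% against 0.0774% and 0.244%. The groups overlapped there, so no order was read for Cxcl5.

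In fibroblasts the same comparison gave 0.10 ± 0.58 for Cxcl1, 0.69 ± 0.78 for Cxcl2, 1.10 ± 1.27 for Cxcl3 and 0.29 ± 0.32 for Cxcl5. In mural cells it gave -0.29 ± 0.36 for Cxcl1 and -0.86 ± 0.42 for Cxcl2, where both IMQ+SHP099 libraries (55.8 and 28.9 CPM) lay below both IMQ libraries (82.7 and 64.1 CPM). Myeloid cells gave 0.077 ± 0.78 for Cxcl1, 0.62 ± 0.42 for Cxcl2, -0.13 ± 0.60 for Cxcl3 and -1.47 ± 0.84 for Cxcr2. The standard errors leave room for changes of 2-fold in either direction for Cxcl1 in fibroblasts and myeloid cells, so an effect of that size was not detectable with these libraries.

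**Figure D3:**
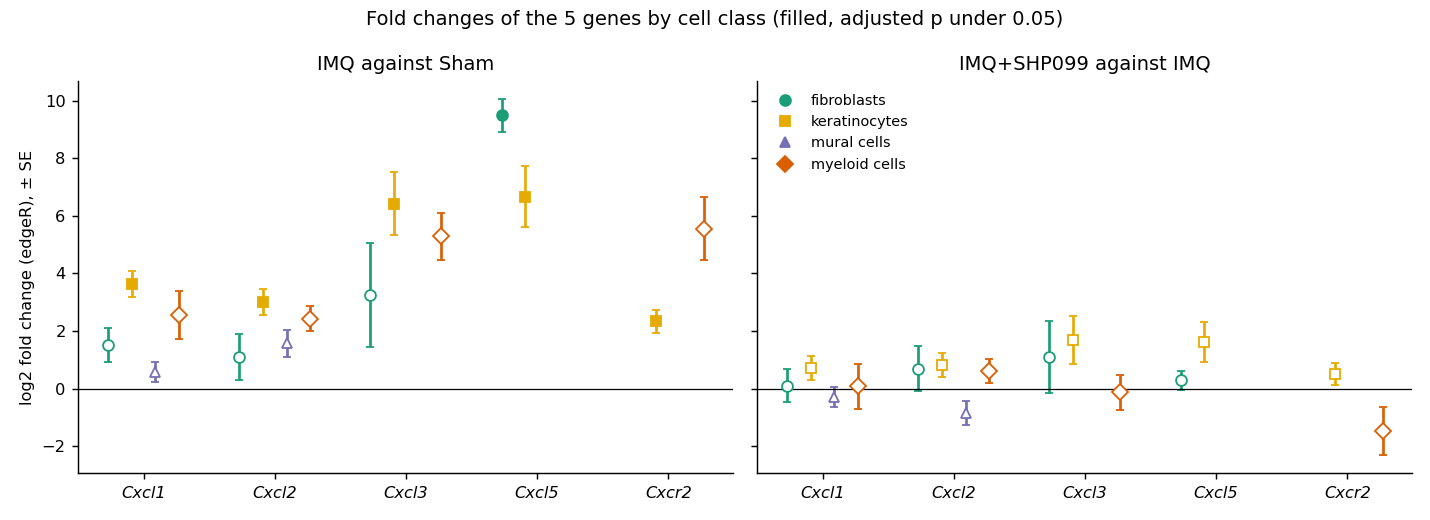
Log2 fold changes from edgeR with standard errors, for IMQ against Sham (left) and IMQ+SHP099 against IMQ (right), in 4 cell classes. Filled symbols passed an adjusted p of 0.05. All 5 keratinocyte values and Cxcl5 in fibroblasts are filled on the left, and none is filled on the right. Genes too low to be tested in a class have no symbol.

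The share of cells with a transcript was compared at an equal depth of 2000 UMIs per cell. Shallower cells were left out, which removed 270 Sham, 66 IMQ and 128 IMQ+SHP099 keratinocytes, and in the same order of groups 315, 303 and 403 fibroblasts and 172, 148 and 77 myeloid cells. With 2 libraries against 2 the exact two-sided permutation test cannot give a p below 0.333. In keratinocytes Cxcl1 was found in 1.32% and 1.20% of cells in the Sham libraries, 11.7% and 7.63% with IMQ, and 13.4% and 14.8% with IMQ+SHP099. The share of lymphocytes with Cxcl1 was 0% to 2.25%. Cxcl2 was found in 1.19% and 1.20% of keratinocytes in the Sham libraries, 18.1% and 10.8% with IMQ, and 17.0% and 21.8% with IMQ+SHP099. Both genes were therefore found in more keratinocytes in every treated library than in either Sham library (exact permutation p = 0.333 for IMQ against Sham). Without thinning, Cxcl1 was found in 5.28% and 5.60% of Sham and 37.0% and 31.7% of IMQ keratinocytes, and Cxcl2 in 3.48% and 3.52% of Sham and 41.6% and 31.5% of IMQ keratinocytes.

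In myeloid cells Cxcl2 was found in 25.0% and 30% of cells in the Sham libraries, 77.8% and 73.9% with IMQ, and 75.8% and 71.5% with IMQ+SHP099. Cxcl5 was found in 0% and 0.0302% of fibroblasts in the Sham libraries, 3.20% and 3.40% with IMQ, and 3.79% and 1.84% with IMQ+SHP099. Cxcl1 was found in 13.3% and 7.04% of fibroblasts in the Sham libraries, 17.5% and 25.3% with IMQ, and 18.4% and 22.3% with IMQ+SHP099. The Sham and IMQ shares did not overlap for any of these 3. Without thinning, the IMQ shares were 79.4% and 80.0% for Cxcl2 in myeloid cells, 5.77% and 6.26% for Cxcl5 in fibroblasts and 30.5% and 40.5% for Cxcl1 in fibroblasts, and the Sham shares were 32.8% and 35.7%, 0.0889% and 0.0869%, and 20.4% and 14.5%. In mural cells the share with Cxcl1 was lower in IMQ (19.5% and 20%) than in Sham (26.4% and 25.8%), while the level in CPM was higher, so no order was read from that share. Cxcr2 was found in 0% and 0.257% of myeloid cells in the Sham libraries, 8.47% and 19.5% with IMQ, and 1.82% and 9.0% with IMQ+SHP099, so IMQ+SHP099 overlapped IMQ. Without thinning, Cxcr2 was found in 0.405% and 0.883%, 15.4% and 28.7%, and 2.75% and 13.2% of myeloid cells.

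A few cells carried most of the Cxcl5. In IMQ the 1% of fibroblasts with the most Cxcl5 UMIs held 61.3% and 63.1% of them, and the highest single cells held 141 and 121. Fibroblasts with Cxcl5 often had Cxcl1 as well. Of the 198 and 387 Cxcl5-bearing fibroblasts in IMQ, 64.1% and 61.8% had Cxcl1, against 30.5% and 40.5% of all fibroblasts. Cxcl2 was found in 30.8% and 32.6% of them, against 11.4% and 13.7% of all fibroblasts. Cxcl5-bearing fibroblasts were deeper than the class, with a median of 15608 and 14093 UMIs against 8644 and 9252, and the part of depth in these shares was not tested.

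In keratinocytes the 3 ligands Cxcl1, Cxcl2 and Cxcl3 were found in the same cells more often than in the class at large. Of 201 and 51 keratinocytes with Cxcl3 in IMQ, 63.7% and 62.7% had Cxcl1, against 37.0% and 31.7% of all keratinocytes, and 72.6% and 64.7% had Cxcl2, against 41.6% and 31.5%. The cells with Cxcl3 were deeper than the class, with a median of 45795 and 40873 UMIs against 35066 and 31897. Of keratinocytes with Cxcr2, 39.9% and 30.7% had Cxcl1, near the share in all keratinocytes.

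Cxcr2 in keratinocytes was low but present in every library. Its level was 0.768 and 1.14 CPM in the Sham libraries, 4.44 and 3.23 with IMQ, and 5.24 and 4.71 with IMQ+SHP099, so every treated library lay above both Sham libraries. Fibroblasts did not exceed 0.963, and lymphocytes held 1 Cxcr2 UMI in all. Csf3r, the receptor of granulocyte colony-stimulating factor and a neutrophil marker, was set beside it. A list of 8 neutrophil markers summed to 281 and 115 CPM in Sham keratinocytes, 23.97 and 39.9 with IMQ, and 15.3 and 39.5 with IMQ+SHP099, and Csf3r had no UMI in Sham replicate 1. Its members did not all move the same way. Retnlg, a marker of mature neutrophils, went from 0.0116 and 0 CPM in Sham keratinocytes to 6.13 and 22.6 with IMQ and stood at 0 and 5.86 with IMQ+SHP099, and Csf3r went from 0 and 0.185 CPM to 0.417 and 1.08 with IMQ. Fibroblasts of Sham replicate 1 held no UMI of Csf3r or Retnlg, yet the 8 markers summed to 400 CPM there. The sum is thus not a measure of neutrophil RNA alone. Keratinocytes held 202 Cxcr2 UMIs and 19 Csf3r UMIs in IMQ replicate 1, 84 and 28 in IMQ replicate 2, 792 and 8 in IMQ+SHP099 replicate 1, and 49 and 4 in IMQ+SHP099 replicate 2. That is 3 to 99 Cxcr2 UMIs for each Csf3r UMI. Neutrophil-gated cells held 0.306 to 0.563 Cxcr2 UMIs for each Csf3r UMI in the same 4 libraries. In fibroblasts of IMQ the ratio was 0.30 and 0.526. The part of neutrophil RNA in the Cxcr2 of keratinocytes or fibroblasts was not tested.

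**Figure D4:**
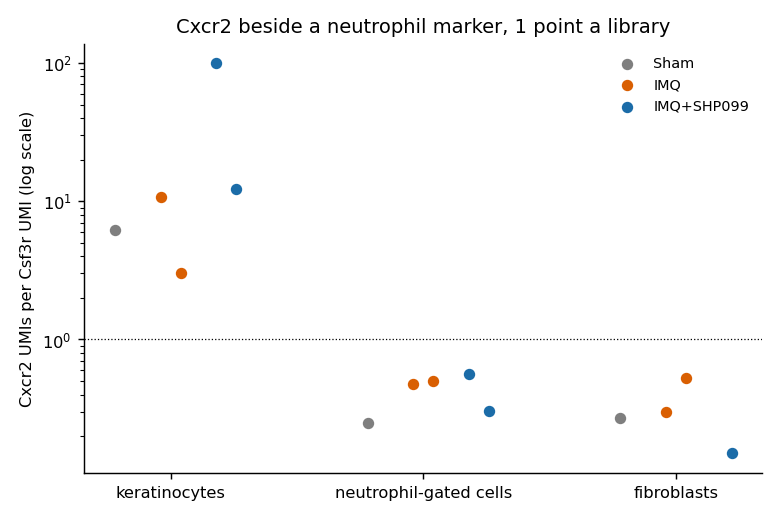
Cxcr2 UMIs for each UMI of the neutrophil marker Csf3r, on a log axis, in keratinocytes, neutrophil-gated cells and fibroblasts. Each point is a library with at least 1 UMI of both genes in that gate, and the dotted line marks an equal number of both. Keratinocytes stand at 3 or higher, and neutrophil-gated cells and fibroblasts below 1.

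Lymphocytes turned out to hold Cxcl2. Their level was 107 and 44.9 CPM in the Sham libraries, 1341 and 347 with IMQ, and 280 and 1230 with IMQ+SHP099. Only 107 of the 2374 cells had 5 or more Cxcl2 UMIs, and these held 97.6% of the 5788 UMIs. Of these 107 cells 99.1% had a CD3 chain transcript and 4.67% the myeloid marker Tyrobp, against 96.5% and 8.34% of all lymphocyte-gated cells. The CD3 chains and Tyrobp are among the markers that set the gates, so these shares follow from the gating and are no separate check. Pooled over all libraries, Il17a was found in 73.8% of the 107 cells and Il17f in 65.4%. The lymphocytes without Cxcl2 gave 10.2% and 11.2%, and were shallower (a median of 2391.5 UMIs against 5149). By library, Il17a was found in 16.7% and 33.3% of the Cxcl2-rich cells in Sham, 82.7% and 50% with IMQ, and 57.1% and 86.7% with IMQ+SHP099. The lymphocytes without Cxcl2 ran from 0.995% to 20.1%. Il17a and Il17f encode interleukin 17 cytokines and were chosen for this description after the values were seen. IMQ replicate 1 held 52 of the 107 cells and IMQ+SHP099 replicate 2 held 30, with 6 or 7 in each other library.

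Other genes of the pathway were read from 5 lists. Of 13 inducers and receptors, 12 were tested in keratinocytes and 4 were higher in IMQ, beside 5.19% of all genes. The median log2 fold change of the list was 0.27 against -0.09 for all genes. The 4 genes were Il1a, an alarmin of the epidermis (3.64 ± 0.49, adjusted p = 0.00342), Il17f (5.58 ± 1.25, adjusted p = 0.0259), Tnf (1.55 ± 0.26, adjusted p = 0.00789) and Myd88, the adaptor of Toll-like and interleukin 1 receptors (0.91 ± 0.23, adjusted p = 0.0371). Il17f stood at 0.0617 to 7.38 CPM in the keratinocyte gate and at 7.82 to 1438 in lymphocytes, and the part of lymphocyte RNA in its rise was not tested. None of the 13 was called in fibroblasts (11 tested), mural cells (9 tested), myeloid cells (12 tested) or the sum of all cells.

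Among 10 genes that control transcription or mRNA decay, all tested, 1 was called higher in keratinocytes, beside 5.19% of all genes. This was Cebpd, a transcription factor of the acute phase response, at 2.41 ± 0.28 (adjusted p = 0.00210). Among 8 other neutrophil attractants and growth factors, 7 were tested in fibroblasts and 2 rose, beside 0.269% of all genes. They were Csf3, which drives the making of neutrophils, by 5.85 ± 0.86 (adjusted p = 0.0494) and Cxcl12, the ligand of CXCR4, by 2.43 ± 0.35 (adjusted p = 0.0473). In keratinocytes Csf3 rose by 6.86 ± 1.11 (adjusted p = 0.00729) and was the one gene called of 7 tested, beside 5.19% of all genes. Of 5 other genes listed beside the CXCR2 axis, 2 were tested in keratinocytes. Among these Ackr2 was lower in IMQ, at -2.34 ± 0.58 (adjusted p = 0.0371), where 7.57% of genes were called lower. Ackr2 stood in that list although its product is a scavenging receptor for CC chemokines, so its fall is not a result on the CXC ligands. None of the 7 genes of vessel adhesion was called in any sum, and no gene of these 5 lists was called in mural cells, myeloid cells or all cells. The median of the attractants was 1.87 in fibroblasts, 1.71 in keratinocytes and 2.73 in myeloid cells, against -0.0088, -0.09 and -0.03 for all genes there, while in mural cells, with 2 of them tested, it was -1.06 against -0.06. No gene of any list was called in the comparison of IMQ+SHP099 with IMQ.

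The genes whose levels over 24 points (4 classes in 6 libraries) were most like each member were found among 6294 genes by Pearson's r of log2 values. The points share libraries and depth, so r is a description. Cxcl5 was most like Prg4, which encodes lubricin (r = 0.93), followed by Ddah1 (0.83) and the gene of the agouti protein, a (0.82). Cxcl3 was most like Slpi, which encodes a protease inhibitor (0.91), Stfa2 (0.90) and Slc7a11, a cystine transporter (0.90). Cxcr2 was most like Taldo1, Mxd1 and Stfa2l1 (0.93, 0.92 and 0.92), Cxcl2 like Fam96a, Cib1 and Arpc3 (0.95, 0.94 and 0.94) and Cxcl1 like Anxa3, Tspan4 and Hacd1 (0.85, 0.83 and 0.82). Among the members themselves, Cxcl3 and Cxcr2 were the most alike (0.84), and Cxcl5 and Cxcr2 the least (-0.27).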

How the data were processed

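Raw UMI counts, which the authors deposited as 1 matrix a library, were made by them with Cell Ranger 3.1.0 against GRCm38 (per the file headers and the study's methods). As in the study, a barcode was kept below 100000 UMIs, 6500 genes and 10% of mitochondrial UMIs. Each cell was scored for 10 classes over 89 markers on log values scaled to 10000 UMIs, and was assigned at a score of at least 0.2 and a margin of 0.1. This scoring rule was chosen after the cells were seen, and 5.87% of cells lay within 0.05 of a limit. The members, gene lists and markers were chosen with earlier results of these data known.

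UMIs were summed per library and class and tested with edgeR 4.0.16 (R 4.3.3) by the quasi-likelihood method, with TMM and filterByExpr and no covariate, at a Benjamini-Hochberg adjusted p under 0.05. DESeq2 1.42.0 was an alternative. SEs were derived from the F statistic of each test. The study ranked single cells, which are not replicates. The test of differences between classes, with the library as a block, was added after the data were seen. Counting intervals are exact at 95% and cover counting error only. The script was tested on simulated counts with 100 genes changed 4-fold and another 100 changed 2-fold. Alternatives were other size factors, no filter, a replicate block, only 2 groups, single libraries left out, a 5% mitochondrial limit, a margin of 0.3, and 33 Leiden clusters (scanpy 1.11.5), which gave 98.9% of cells of the 4 classes the same class. Named genes were the 5 members, at most 3 called genes per list and sum with the largest fold change, except that 4 are named for the inducers in keratinocytes, and the 3 most alike genes per member. Coordinates are from GENCODE vM21, and upstream sequences from RefSeq (GRCm38.p6, 4 of 5 members matched).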

Additional observations from a re-analysis of the deposited data

Results flagged for a closer look

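The IMQ effect on Cxcl1 differed between keratinocytes and mural cells, by 3.05 on the log2 scale in the test of the difference itself. Mural cells were already high in Sham, and keratinocytes were low there.

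Some transcripts appeared in classes that entered no test of groups, with both IMQ libraries above both Sham libraries. The mean level in IMQ was 844 CPM for Cxcl2 and 29.9 for Cxcl1 in lymphocyte-gated cells, 41.2 for Cxcl2 and 103 for Cxcl1 in endothelial-gated cells, and 17.6 for Cxcl2 in Schwann-gated cells. Differences between groups in these classes were not tested. The Schwann value rests on 11 UMIs over both IMQ libraries, and the lymphocyte value for Cxcl1 on 155, of which 151 came from IMQ replicate 1.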

How the results depend on the processing

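For IMQ against Sham, 233 alternative values of the members' log2 fold changes were computed in the 5 sums, and none turned its direction. The 2 calls that were lost were Cxcl5 in fibroblasts without Sham replicate 2 (8.60, adjusted p = 0.0877) and Cxcr2 in keratinocytes without IMQ replicate 1 (2.03, adjusted p = 0.0896). With 1 library left out, the lone sample of its group is assumed to vary like the others.

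Counts of genes called moved more than directions did. In the order all cells, fibroblasts, keratinocytes, mural cells and myeloid cells, edgeR called 0, 76, 1848, 51 and 1 gene for IMQ against Sham, DESeq2 called 574, 711, 2831, 166 and 283, and edgeR with no filter on low counts called 30, 1355, 3187, 873 and 5. With only the 2 groups compared, fibroblasts gave 1 gene, mural cells 95 and myeloid cells 229. A 5% mitochondrial limit gave 42 genes in fibroblasts and 20 in mural cells, Leiden clusters gave 130 in fibroblasts and 5 in myeloid cells, and myeloid cells without the neutrophil-gated ones gave 0. Leaving out 1 library gave 0 (without Sham replicate 2) to 267 genes (without Sham replicate 1) in fibroblasts, 476 (without IMQ replicate 1) to 2266 in keratinocytes, 6 (without Sham replicate 2) to 365 (without Sham replicate 1) in mural cells and 0 in myeloid cells. IMQ replicate 2 also mattered in keratinocytes (685 genes without it). Without the filter the members called numbered 1 in all cells, 5 in fibroblasts and 1 in mural cells. DESeq2 called 5 members in all cells and 3 in myeloid cells, and the fit on only 2 groups called 3 in myeloid cells. Leaving out 1 library gave 0 to 2 members called in fibroblasts, 4 to 5 in keratinocytes and 0 to 1 in mural cells. The cause of these shifts was not tested, beyond the smaller number of samples in some fits.

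For IMQ+SHP099 against IMQ, edgeR called 0 genes in each sum. DESeq2 called 3, 5, 8, 3 and 3 in the same order. With no filter, 84 genes were called in fibroblasts, 141 in keratinocytes, Cxcl3 as the 1 member among them (adjusted p = 5.78e-05), and 108 in mural cells. Leiden clusters gave 4 genes in mural cells, and leaving out 1 library gave 0 to 1 in keratinocytes and 0 to 3 in mural cells. Directions of small changes turned. Cxcl2 in all cells (main value -0.0083) became 0.064 with DESeq2 and 0.064 with RLE size factors. Cxcl1 in myeloid cells (main value 0.077) became -0.034 with the 5% mitochondrial limit, -0.80 with the stricter margin and -0.25 with Leiden clusters, and Cxcl3 there (main value -0.13) became 1.20 without neutrophil-gated cells. With 1 library left out, these values fell on both sides of 0. Cxcl1 in all cells ran from -0.40 to 0.17 and Cxcl2 in all cells ran from -0.36 to 0.49. Cxcr2 in all cells ran from -0.93 to 0.30 and Cxcl1 in fibroblasts ran from -0.18 to 0.44. Cxcl2 in fibroblasts ran from -0.36 to 1.26 and Cxcl5 in fibroblasts ran from -0.25 to 0.66. Cxcl1 in mural cells ran from -0.96 to 0.19 and Cxcl1 in myeloid cells ran from -0.48 to 0.53. Cxcl3 in myeloid cells ran from -1.07 to 0.40.

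Replicate numbers are shared between groups, but the labels do not say that a number marks a shared batch, and with 2 pairs they were not taken as a pairing. Deviations of same-numbered libraries from their group means correlated at 0.36 to 0.56 in all cells, 0.26 to 0.34 in myeloid cells and -0.07 to 0.20 in the other 3 sums. With the replicate block, IMQ against Sham gave 287 genes in all cells, 247 in fibroblasts and 88 in myeloid cells, with 4 members called in all cells (Cxcl1, Cxcl2, Cxcl3 and Cxcl5) and 2 in myeloid cells (Cxcl3 and Cxcr2). For IMQ+SHP099 against IMQ the block gave 1 gene in mural cells, and Cxcl2 in all cells stood at 0.028.

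Depth and number limit what these libraries can show. With 2 pooled libraries a group, 4-fold changes simulated for IMQ against Sham were recovered in 47.0% of cases in keratinocytes (14569 genes), 52.0% in fibroblasts (14803 genes), 80.0% in mural cells (11424 genes) and 0% in myeloid cells and in all cells. Changes of 2-fold were recovered in 3%, 2%, 13%, 0% and 0% of cases, in the same order. False calls were 8 of 58 calls in keratinocytes, 6 of 60 in fibroblasts and 14 of 107 in mural cells. That is a larger part than an adjusted p under 0.05 is meant to allow. The simulation changed only 100 genes of each size, whereas edgeR called 752 genes higher and 1096 lower in the keratinocyte data. The adjustment over all genes depends on how many change, so the recovery rates need not hold for the data. Sham levels of Cxcl3 and Cxcl5 rest on few UMIs in every class, and Sham neutrophil-gated cells number 3 and 7.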
